A study of Mus musculus with 15 samples.

Results

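Treated WEHI-164 tumors were divided by harvest day into 6 early tumors, taken on days 1 and 3 of intratumoral poly(I:C), and 6 late tumors, taken on days 5 and 7. These are 12 of the 15 tumors sequenced. The remaining 3, untreated and taken on day 0, stood on neither side of the comparison and serve as background. They entered the expression filter, the scaling between libraries and an alternative fit with harvest day as a term. WEHI-164 is a fibrosarcoma line of BALB/c origin, and all tumors grew subcutaneously in female, wild-type BALB/c mice. The treated tumors received Poly(I:C), per the labels 1 µg in 25 µL each day with 6 doses planned, although other text of the study gives a larger amount for this course, so the dose is uncertain. The labels give neither the number of injections before each harvest nor the age of these mice. Each harvest day had 3 tumors, labelled as separate samples, and whole tumors were measured, so fewer cells of a type and less RNA per cell cannot be told apart. The comparison asks how expression late in the course differed from that soon after its start. None of the 15 tumors was left untreated or given vehicle until days 1 to 7. Effects of poly(I:C) over time therefore cannot be told apart from those of tumor age, growth or repeated injection.

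Double-stranded RNA is sensed by Toll-like receptor 3 in endosomes and by the RNA helicases RIG-I (Ddx58) and MDA5 (Ifih1) in the cytosol. These sensors lead to the production of interferon beta and other type I interferons, which act through a common receptor to switch on a large set of antiviral genes. Transcription factors activated by that receptor bind the interferon-stimulated response element (ISRE) in the promoters of such genes. Many of the products are themselves RNA sensors or the transcription factor Irf7, which extends the response, and others, such as Usp18, restrain it.

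Stretches before the start sites of 6 interferon target genes are shown because interferon response genes made up 23 of the 56 genes that DESeq2 called between the phases, although Ifit1 and Rsad2 were not among the 23, with capitals marking each copy of the ISRE core GAAANNGAAA or its reverse complement.
Isg15: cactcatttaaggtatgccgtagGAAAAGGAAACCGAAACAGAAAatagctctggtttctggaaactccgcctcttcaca
Ifit1: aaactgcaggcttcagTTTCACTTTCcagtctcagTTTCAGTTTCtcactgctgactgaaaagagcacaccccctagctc
Ifit3: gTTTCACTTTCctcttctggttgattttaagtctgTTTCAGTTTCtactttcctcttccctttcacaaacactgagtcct
Oas1g: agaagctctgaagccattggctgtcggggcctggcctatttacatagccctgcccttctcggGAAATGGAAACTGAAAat
Oas3: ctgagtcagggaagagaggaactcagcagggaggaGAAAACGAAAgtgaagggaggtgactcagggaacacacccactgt
Rsad2: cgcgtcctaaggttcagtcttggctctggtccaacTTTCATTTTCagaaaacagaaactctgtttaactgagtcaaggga
The stretches are RefSeq sequence on GRCm38.p6, read 5′ to 3′ on the gene's strand, and overlap no annotated exon. Copies that overlap, as in Isg15 and Oas1g, run together. They lie at chr4:156200840-156200919 (minus strand) for Isg15, chr19:34640769-34640848 (plus) for Ifit1, chr19:34583372-34583451 (plus) for Ifit3, chr5:120887614-120887693 (minus) for Oas1g, chr5:120777690-120777769 (minus) for Oas3 and chr12:26456528-26456607 (minus) for Rsad2. Of the 45 interferon response genes examined, 34 matched a RefSeq window, and 14 of those (41.2%) held the core within 250 bases before a start site, on either strand. Among all genes tested, 11077 of 15494 matched and 366 (3.3%) held it. The interferon gamma and antigen presentation list held it in 9 of 24 genes (37.5%), the double-stranded RNA sensing list in 0 of 12 and the immediate early list in 0 of 10. Such a match describes the letters and not binding.

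The depth was similar in both phases, with totals of 24.8 to 31.9 mega-counts in early tumors and 23.7 to 28.3 mega-counts in late ones. Values are CPM, meaning counts relative to TMM-adjusted library totals, and a count of 3, the limit that a count of 0 allows, was worth 0.0972 to 0.125 CPM. Mesenchymal genes of the fibrosarcoma summed to 6750 to 17700 CPM in treated tumors, against 37.8 to 193 CPM for epithelial genes. Day 3 replicate 1 stood apart. It lay at 141 on the first principal component of log2 CPM, which held 62.5% of the variance among treated tumors, while the other 11 lay between -81.5 and 40.1. Its skeletal muscle genes summed to 5140 CPM, against at most 353 CPM in another early tumor, and its adipocyte genes to 781 CPM, against at most 121 CPM. List medians that moved by over 1.5 times without it are given with and without it.

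Pooled in this way, all 45 interferon response genes were lower in late tumors and 12 of 14 immediate early genes were higher, but no single gene passed the edgeR test over all genes. After Benjamini-Hochberg adjustment, the quasi-likelihood test of edgeR called 0 genes (0%) as higher and 0 (0%) as lower in late tumors among 15494, and the smallest adjusted p was 0.554. At an unadjusted p under 0.05, 313 genes (2.02%) were higher in late tumors and 786 (5.07%) were lower. DESeq2 with the same adjustment called 11 genes (0.0726%) as higher and 45 (0.297%) as lower among 15144. Of its 56 calls, 23 were interferon response genes. The 6 late tumors lay entirely above the 6 early ones for 33 genes (0.213%) and entirely below them for 42 genes (0.271%). The median log2 fold change over all genes was -0.01. The tests treat the 6 tumors of a phase as separate, although they come from 2 days, and with the day as the unit the smallest exact two-sided p would be 0.333.

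**Figure D1:**
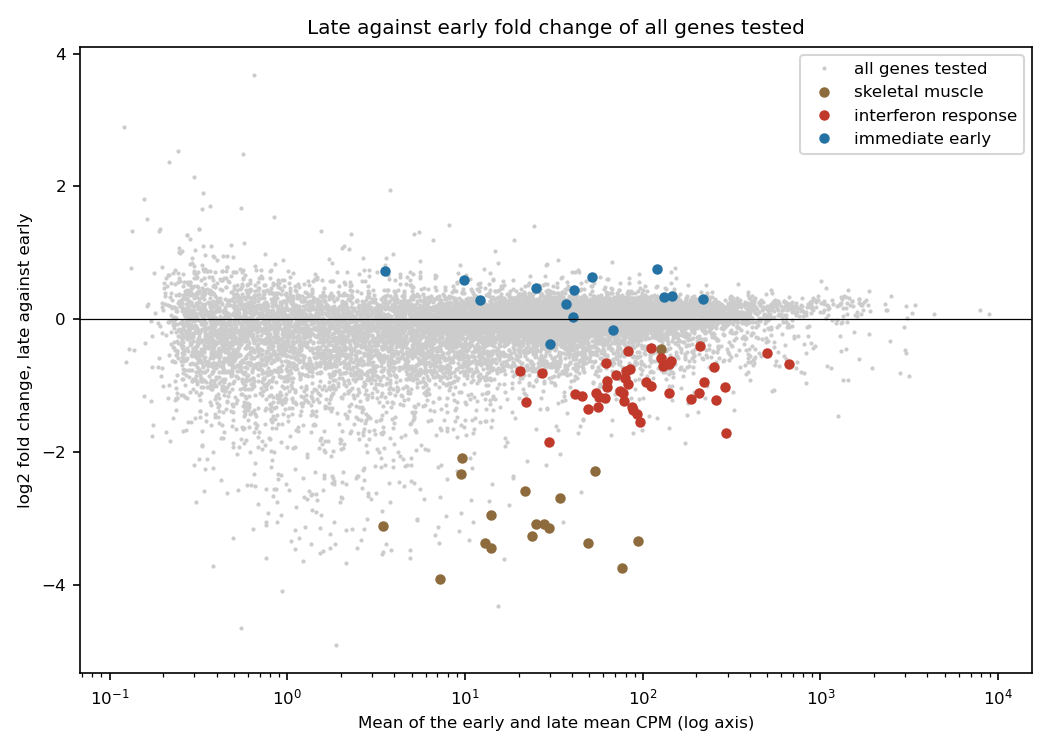
Log2 fold change of late against early tumors (vertical axis) for each of the 15494 genes tested, against the mean of its early and late CPM (horizontal log axis), with the interferon response, immediate early and skeletal muscle lists in color. All 45 interferon response genes sit below 0, between -1.84 and -0.40, while 12 of 14 immediate early genes sit above it.

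The interferon response list was lower in late tumors in all of its 45 genes, with a median log2 fold change of -1.01, against -0.01 over all genes. At an unadjusted edgeR p under 0.05, 43 of 45 were lower (95.6%), against 5.07% of all genes, and none passed the adjusted edgeR test. The members, as those of the other lists, were chosen with earlier results of these data known, so such shares are descriptive and no independent support. DESeq2 called 23 of the 45. The level of the list, its mean log2 CPM, was lowest at 6.38, with a median of 6.71 and a highest value of 7.72 in early tumors, and 5.65, 5.88 and 6.43 in late ones, against 5.53 to 5.90 in untreated tumors. A single late tumor, day 5 replicate 2, lay above the lowest early one. By harvest the means were 6.88 ± 0.74 (day 1), 6.88 ± 0.30 (day 3), 6.15 ± 0.27 (day 5) and 5.75 ± 0.12 (day 7; SD, n = 3), so both early days lay above both late ones. Without day 3 replicate 1 the median was -1.05 and 42 genes were lower at that threshold. The median lay nearest to 0, at -0.77, without day 1 replicate 3, the tumor with the highest level.

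**Figure D2:**
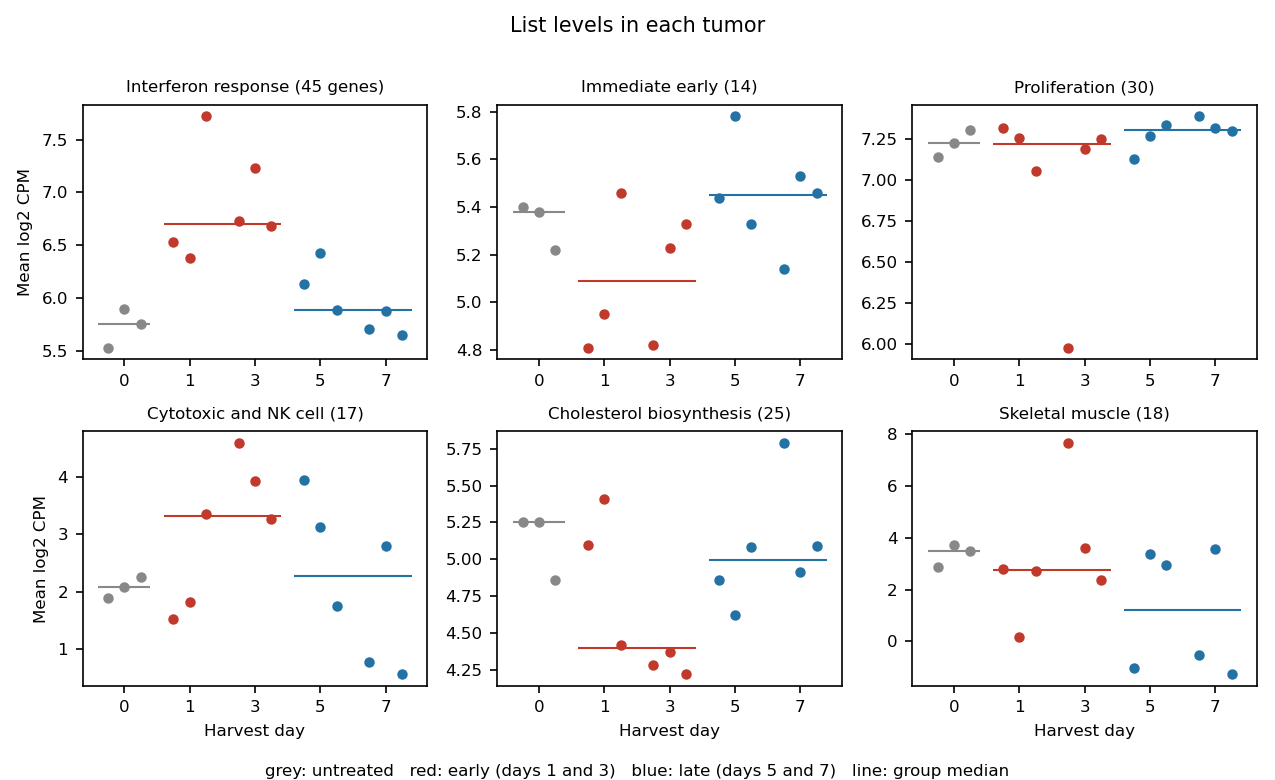
Mean log2 CPM of 6 gene lists (vertical axes) in each of the 15 tumors by harvest day (horizontal axes), with lines at the median of untreated, early and late tumors. The interferon response falls into a higher early and a lower late set that overlap by 1 tumor, while cytotoxic and NK cell genes overlap widely and skeletal muscle genes are highest in day 3 replicate 1.

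Ddx60, a helicase-like antiviral factor (ENSMUSG00000037921.15, GRCm38 chromosome 8, 61928087 to 62038244, plus strand), had the lowest p of all genes. It stood at 43.7 CPM in the lowest, 57.2 in the median and 98.4 in the highest early tumor, and at 24, 27.2 and 35 CPM in late ones. The phases did not overlap, and untreated tumors, at 23.1 to 29.4 CPM, lay within or just below the late range. Its log2 fold change was -1.15 ± 0.18 (SE, edgeR adjusted p = 0.554, DESeq2 adjusted p = 4.88e-05). The exact permutation test over all 924 divisions of the 12 tumors gave p = 0.00216, the smallest it can give. Any gene whose phases do not overlap gets this value, so it adds nothing to the lack of overlap. Ddx60 was also picked for its low p among all genes. Leaving out single tumors moved the log2 fold change between -1.24 and -0.98.

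Active oligoadenylate synthetases make the second messenger that activates RNase L, and the genes of this family named here, whether active or not, were lower late. Oas2 (ENSMUSG00000032690.16, chromosome 5, 120730333 to 120749853, minus strand) stood at 122, 163 and 312 CPM in the lowest, median and highest early tumor and at 72.9, 90.8 and 106 CPM in late ones, against 65 to 76.4 CPM untreated. The phases did not overlap, and its log2 fold change was -1.11 ± 0.20 (SE, DESeq2 adjusted p = 0.000791). The related Oasl2 (chromosome 5, 114896936 to 114912234, plus strand) stood at 253, 287 and 624 CPM early and 118, 141 and 215 CPM late. Its phases did not overlap either, with a log2 fold change of -1.21 ± 0.24 (SE, DESeq2 adjusted p = 0.00257). Oas3, whose promoter stretch is shown above, had a log2 fold change of -1.37, and its highest late tumor, at 80.6 CPM, lay just above its lowest early one, at 80.1 CPM. Oas1b and Oas1g had log2 fold changes of -0.98 and -1.12, and reads of such close paralogs may be divided among them by the counting. EdgeR adjusted p-values of these 5 genes were 0.554.

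Sensors of double-stranded RNA were lower late, while most of their adaptors lay near 0. In the list of 14 sensing genes, 12 were lower and 9 were lower at an unadjusted p under 0.05 (64.3%, against 5.07% of all genes), with a median log2 fold change of -0.54. Of these, 6 also belong to the interferon response list, and among the other 8, 3 were lower at that threshold, namely Tlr3, Tbk1 and Adar. Ddx58, which encodes RIG-I, stood at 133, 163 and 256 CPM in the lowest, median and highest early tumor and 108, 112 and 126 CPM in late ones, against 108 to 113 CPM untreated. Its phases did not overlap, and its log2 fold change was -0.63 ± 0.14 (SE). The exact permutation p was 0.00216, as for any gene without overlap. Ifih1, which encodes MDA5, stood at 79.4, 95.5 and 154 CPM early and 51.9, 60.9 and 80.1 CPM late, so that 1 late tumor reached into the early range. Tlr3, the endosomal receptor, had a log2 fold change of -0.69 ± 0.17 (SE), from a median of 31.2 CPM early to 19.6 CPM late, against 17.6 to 21.1 CPM untreated. The adaptor genes Mavs, Traf3 and Ticam1 had log2 fold changes of 0.04, 0.18 and -0.17, and Irf3, the constitutive transcription factor of the pathway, one of -0.03. The edgeR adjusted p was 0.554 for Ddx58, Ifih1 and Tlr3, and DESeq2 gave adjusted p-values of 0.0136, 0.00901 and 0.043.

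Irf7, Isg15 and Ifit1 spread more widely among early tumors than the sensors. Irf7, the transcription factor that extends the response (chromosome 7, 141262706 to 141266481, minus strand) stood at 173, 460 and 814 CPM in the lowest, median and highest early tumor and at 75.7, 130 and 246 CPM in late ones, against 60.4 to 97 CPM untreated. The phases overlapped, with day 1 replicate 2 at 173 CPM and day 5 replicate 2 at 246 CPM, and its log2 fold change was -1.71 ± 0.40 (SE, exact permutation p = 0.00866). Isg15, a ubiquitin-like protein attached to other proteins, stood at 56.1, 91.8 and 269 CPM early and 43.8, 47 and 66.7 CPM late, with a log2 fold change of -1.32 ± 0.34 (SE). Ifit1, which binds viral RNA, stood at 61, 81.1 and 201 CPM early and 36.8, 46 and 68.9 CPM late, with a log2 fold change of -1.08 ± 0.29 (SE). Samd9l, an antiviral restriction factor, was narrower, at 136, 165 and 229 CPM early and 86, 113 and 120 CPM late with no overlap and a log2 fold change of -0.68 (DESeq2 adjusted p = 0.00126). EdgeR adjusted p-values of these 4 genes were 0.554 to 0.584. Day 1 replicate 3 was the highest early tumor for Irf7, Isg15, Ifit1 and Samd9l, and without it the log2 fold changes of Irf7 and Isg15 were -1.46 and -0.95.

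**Figure D3:**
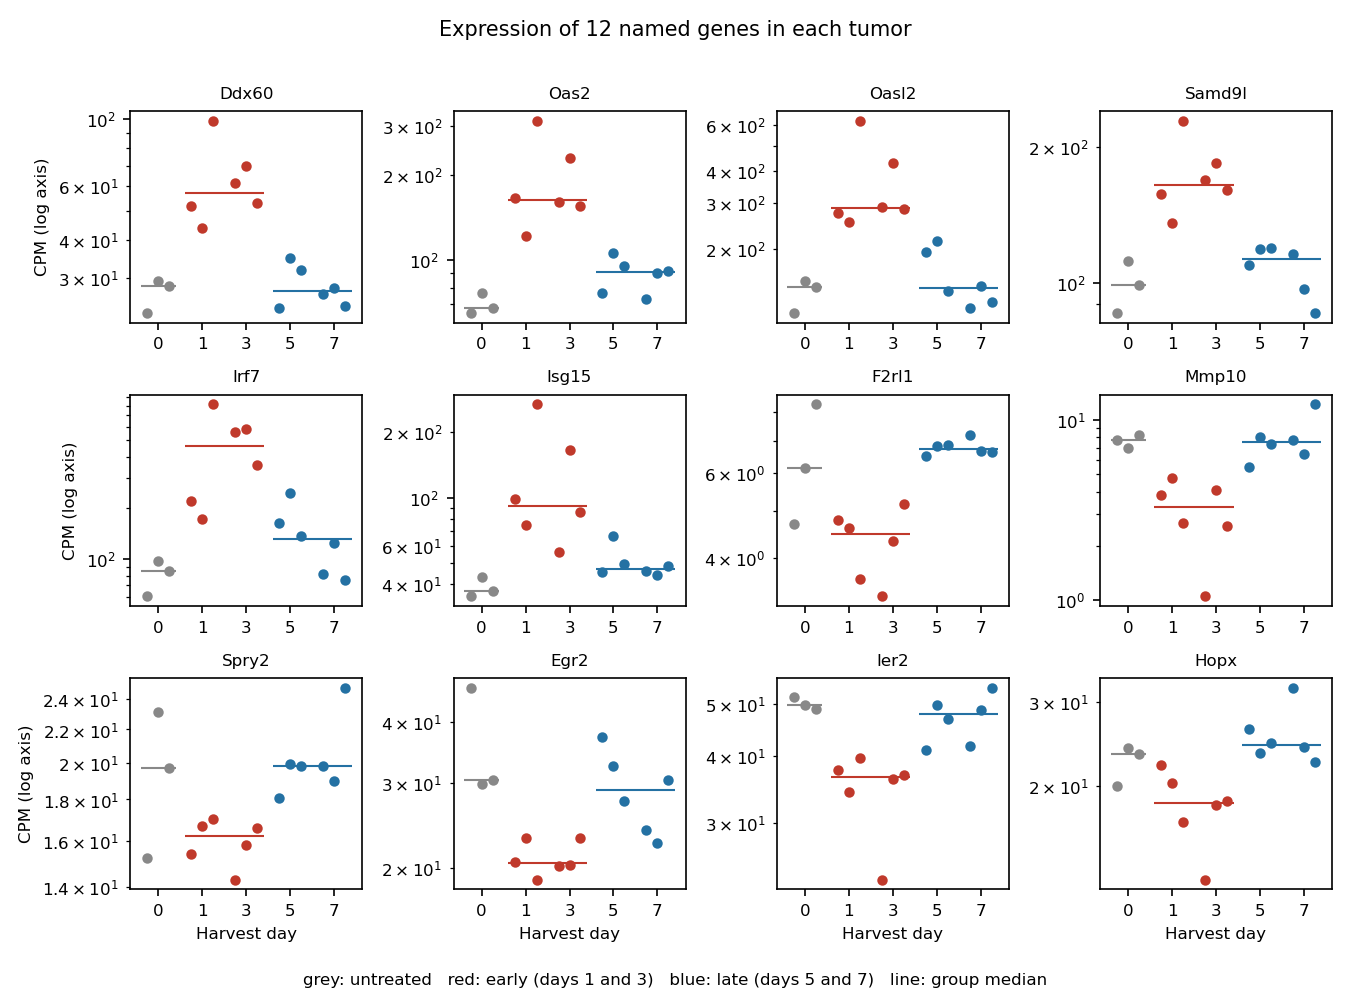
CPM (vertical log axes, each with its own range) of 12 named genes in every tumor by harvest day (horizontal axes), with lines at the median of untreated, early and late tumors. Ddx60, Oas2, Oasl2 and Samd9l are lower in every late than in every early tumor, F2rl1, Mmp10, Spry2, Ier2 and Hopx are higher in every late than in every early tumor, and Irf7, Isg15 and Egr2 overlap.

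Genes outside the list were lower as well. Rnf213, a very large ubiquitin ligase with antimicrobial activity, stood at 383, 454 and 617 CPM in the lowest, median and highest early tumor and at 264, 309 and 358 CPM in late ones, with no overlap and a log2 fold change of -0.64 ± 0.12 (SE, edgeR adjusted p = 0.554, DESeq2 adjusted p = 0.00126). Late tumors reached below the untreated range of 337 to 366 CPM. Trim34a, of the TRIM antiviral family, did not overlap either, at 6.85 to 14.3 CPM early and 4.47 to 6.81 CPM late. Of the other genes with no overlap, several were chosen for mention after their values were seen. Lgals9, a galectin, had a log2 fold change of -0.79, Ifi203, of the interferon-inducible p200 family, one of -0.61, and Zc3hav1, the zinc finger antiviral protein, one of -0.24. Zmynd8, a chromatin reader, had one of only -0.23 but little spread, at 132 to 140 CPM early and 105 to 125 CPM late (DESeq2 adjusted p = 0.000817, edgeR adjusted p = 0.554). In all, 37 of the 42 genes that lay entirely lower in late tumors were in none of the lists, which hold few of the 15494 genes tested. The other 5 were in the interferon response list, which has only 45 genes.

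Apart from Ifng, the interferon ligands were near the limit of detection. Of 21 ligand genes, 12 had no count in any treated tumor and 19 had at most 3 counts in each. Ifnb1, which encodes interferon beta, had 1, 1 and 21 counts on day 1, 2, 4 and 2 on day 3, 2, 2 and 6 on day 5 and 3, 3 and 1 on day 7, and was too low to be tested. The 21 counts belonged to day 1 replicate 3, the tumor with the highest interferon response. Ifng, the type II interferon of T and NK cells, stood at 1.2, 5.42 and 8.31 CPM in the lowest, median and highest early tumor and 0.691, 2.26 and 6.44 CPM in late ones. These ranges overlapped widely, and its log2 fold change was -0.65 ± 0.62 (SE, edgeR adjusted p = 0.638). Leaving out day 3 replicate 2 gave -0.43, and leaving out day 5 replicate 1 gave -1.

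Genes of the interferon gamma response and antigen presentation were lower late by less, and unevenly. All 32 had a log2 fold change below 0, with a median of -0.45, and 10 were lower at an unadjusted p under 0.05 (31.2%, against 5.07% of all genes). With a tumor left out this count was 20 (day 5 replicate 1), 16 (day 1 replicate 1), 4 (day 1 replicate 3), 5 (day 5 replicate 3) or 6 (day 3 replicate 2 and, likewise, replicates 1 and 3 of day 7). Without day 3 replicate 1 the median was -0.40, with 7 genes higher. The guanylate-binding protein gene Gbp9 stood at 122, 180 and 220 CPM in the lowest, median and highest early tumor and 64.7, 99.8 and 151 CPM in late ones, with a log2 fold change of -0.76 ± 0.20 (SE, edgeR adjusted p = 0.584). Class I genes such as H2-K1 and H2-D1 had log2 fold changes of -0.44 and -0.47, and B2m, their shared light chain, one of -0.33. Class II genes H2-Aa and H2-Ab1 had larger ones, -0.68 and -0.65, but did not reach an unadjusted p under 0.05. The level of the list overlapped, at 7.37 to 8.53 early and 6.75 to 8.63 late, and its highest value of all was in a late tumor, day 5 replicate 1.

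Immune cell lists had medians below 0, but the tumors of both phases overlapped and the medians lay nearer to 0 without a single early tumor. Among T cell genes, 21 of 22 were lower and none reached an unadjusted p under 0.05, with a median log2 fold change of -0.71. Among cytotoxic and NK cell genes, 17 of 17 were lower and 1, Ccl5, reached that threshold (5.88%, against 5.07% of all genes), with a median of -0.82. Without day 3 replicate 1 these medians were -0.04 and -0.27, and without day 5 replicate 1, the late tumor with the highest levels, they were -1.37 and -1.34. Cd3e, of the T cell receptor complex, stood at 1.54, 6.7 and 28.5 CPM in the lowest, median and highest early tumor and 0.71, 3.21 and 15.9 CPM in late ones. Its log2 fold change was -0.76 ± 0.81 (SE, edgeR adjusted p = 0.664), and 0.01 without day 3 replicate 1. Cd8a and Foxp3, the regulatory T cell factor, had log2 fold changes of -0.49 and -0.20, which became 0.04 and 0.35 without it and -0.90 and -1.16 without day 5 replicate 1. Regulatory T cell, B and plasma cell and dendritic cell lists had medians of -0.36, -0.58 and -0.52, which became -0.06, 0.11 and 0.07 without it, and -1.16, -1.69 and -1.01 without day 5 replicate 1. Gzma, a granzyme, stood at 14, 48.9 and 93.6 CPM early and 4.1, 17.3 and 52 CPM late (edgeR adjusted p = 0.596).

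Pooling joined days with unlike mean T cell levels. T cell genes averaged 2.07 ± 0.82 (day 1), 3.72 ± 0.86 (day 3), 2.93 ± 1.20 (day 5) and 1.42 ± 1.02 (day 7), against 2.07 ± 0.23 in untreated tumors (mean log2 CPM, SD, n = 3). The day means were thus lower on days 1 and 7 and higher on days 3 and 5, although single tumors of these days overlapped, and each pool held a day of either kind. The interferon means did not follow this order. Day 1 replicates 1 and 2 had T cell levels of 1.62 and 1.57 with interferon levels of 6.53 and 6.38. Day 5 replicate 1 had a T cell level of 4.03 with an interferon level of 6.13, below every early tumor. In other tumors both levels ran together. Day 7 replicates 1 and 3 had the lowest treated levels of both lists, at 1.07 and 0.62 for T cell genes and 5.71 and 5.65 for the interferon response. Every day 3 tumor lay above every untreated one in both lists. Cytotoxic and NK cell, regulatory T cell, B and plasma cell, macrophage, neutrophil and dendritic cell means ranked the days as T cell means did. Monocyte means differed from this order only in that day 1 lay slightly above day 5. They were 6.18 ± 0.54 (day 1), 6.39 ± 0.16 (day 3), 6.12 ± 0.36 (day 5) and 5.67 ± 0.19 (day 7; mean log2 CPM, SD, n = 3). Day 1 replicate 3 had the highest treated level of both lists, at 6.80 for monocyte genes and 7.72 for the interferon response. The part of the cell makeup in the interferon difference was not tested.

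Myeloid genes differed gene by gene. Of 12 monocyte genes, 4 were lower and 1 was higher at an unadjusted p under 0.05, against 5.07% and 2.02% of all genes, and the list's median of -0.39 was -0.17 without day 3 replicate 1. Ly6c2, which marks inflammatory monocytes, stood at 22.4, 65.3 and 123 CPM in the lowest, median and highest early tumor and 10.7, 18.8 and 43.8 CPM in late ones, against 11.4 to 19 CPM untreated. Its log2 fold change was -1.51 ± 0.49 (SE, edgeR adjusted p = 0.596, exact permutation p = 0.0303), and ran from -1.78 to -1.26 when single tumors were left out. Plac8 had one of -0.74, while S100a4, a calcium-binding protein also made by mesenchymal cells, had one of 0.57. In the whole monocyte list 8 genes were lower and 4 higher, with Ccr2 at -0.47 and Fn1, Vcan and Cd14 at 0.11, 0.13 and 0.10. The 12 genes summed to 2710 to 3100 CPM in early tumors and 2900 to 3800 CPM in late ones. This sum holds S100a4 and Fn1, which are also in the mesenchymal and extracellular matrix lists. Whether late tumors held fewer monocytes was not tested. The macrophage list had a median of -0.56, and -0.13 without day 3 replicate 1, in which its genes summed to 13700 CPM. Its member Cx3cr1, the fractalkine receptor, went the other way, at 11.1, 22.5 and 31.3 CPM early and 22.3, 28.2 and 66.8 CPM late, with a log2 fold change of 0.83 ± 0.32 (SE, edgeR adjusted p = 0.596). Neutrophil genes had a median of -0.67, which was -0.44 without that tumor and -1.08 without day 5 replicate 1. S100a8 and S100a9 had log2 fold changes of -0.84 and -1.46 at low levels of at most 16.7 CPM, and that of S100a8 was -0.46 without day 1 replicate 3. The total of 5 monocyte genes at an unadjusted p under 0.05 was 2 without day 1 replicate 3, and 3 when day 3 replicate 2, day 5 replicate 3 or any 1 of the day 7 tumors was left out.

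Chemokines that draw T and NK cells had a median log2 fold change of -0.58 over 11 genes, with 2 lower at an unadjusted p under 0.05 (18.2%, against 5.07% of all genes), and the median was -0.32 without day 3 replicate 1. Those for monocytes had one of -0.40 over 6 genes with 0 at that threshold, and those for neutrophils one of -0.69 over 4 genes with 1 (25%, against the same 5.07%). Without day 1 replicate 3 these medians were -0.23 and -0.19, and no neutrophil chemokine reached that threshold. Ccl5, which draws T cells and monocytes, stood at 31.6, 101 and 177 CPM in the lowest, median and highest early tumor and 6.91, 33.1 and 72.1 CPM in late ones, with a log2 fold change of -1.51 ± 0.60 (SE, edgeR adjusted p = 0.596). Cxcl11 had a log2 fold change of -1.06 ± 0.37 (SE), and the related Cxcl10 one of -0.58 ± 0.37 (SE), which were -0.70 and -0.31 without day 1 replicate 3. Both sets of ranges overlapped. Ccl2, the main monocyte chemoattractant, had medians of 227 CPM early and 217 CPM late and a log2 fold change of -0.03 ± 0.28 (SE), which ran from -0.20 without day 3 replicate 1 to 0.13 without day 1 replicate 3.

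Complement genes were lower late in 13 of 13 cases, with a median log2 fold change of -0.72, and 3 were lower at an unadjusted p under 0.05 (23.1%, against 5.07% of all genes). C2, of the classical pathway, was the clearest, at 99.3, 138 and 235 CPM in the lowest, median and highest early tumor and 62.9, 73.7 and 114 CPM in late ones, with a log2 fold change of -0.89 ± 0.20 (SE, edgeR adjusted p = 0.554, DESeq2 adjusted p = 0.0173). Cfb, its counterpart in the alternative pathway, had one of -1.37 ± 0.55 (SE) and overlapping phases. The median of the list was -0.34 without day 3 replicate 1, and 1 gene was lower at that threshold. With other tumors left out, the count of 3 was 8 (day 5 replicate 1), 5 (day 1 replicate 1), 2 (day 3 replicate 2 and, likewise, day 7 replicates 2 and 3) or 1 (day 1 replicate 3 and, likewise, day 5 replicate 3 and day 7 replicate 1).

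Immediate early genes, which are induced within minutes of growth factor signals and of which many code for transcription factors, went the other way. Of 14, 12 were higher in late tumors, with a median log2 fold change of 0.34, and 7 were higher at an unadjusted p under 0.05 (50%, against 2.02% of all genes). They were Egr1, Egr2, Egr3, Ier2, Ier3, Jun and Junb. The level of the list was 4.81, 5.09 and 5.46 in the lowest, median and highest early tumor and 5.14, 5.45 and 5.78 in late ones, against 5.22 to 5.40 untreated, so the phases overlapped. Ier2 stood at 23.5, 36.5 and 39.7 CPM in the lowest, median and highest early tumor and at 41.1, 47.8 and 53.6 CPM in late ones, against 48.9 to 51.5 CPM untreated. Its phases did not overlap, and untreated tumors lay inside the late range. Its log2 fold change was 0.44 ± 0.12 (SE, edgeR adjusted p = 0.593). The exact permutation p was 0.00216, as for any gene without overlap. Egr2 stood at 18.9, 20.5 and 23.1 CPM early and 22.5, 28.9 and 37.3 CPM late, against 29.8 to 47.1 CPM untreated, so that 1 late tumor reached the early range. Its log2 fold change was 0.46 ± 0.12 (SE, edgeR adjusted p = 0.584). Egr1 and Egr3 had log2 fold changes of 0.76 and 0.72, whereas Atf3 and Zfp36 were at -0.37 and -0.16 and Fos at 0.24, and Atf3 was at -0.18 without day 1 replicate 3. The median ran from 0.31 to 0.41 when single tumors were left out, and was 0.35 without day 3 replicate 1.

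A pair of stretches is shown for the higher group, each with a CArG box, the site bound by serum response factor, in capitals.
Egr2: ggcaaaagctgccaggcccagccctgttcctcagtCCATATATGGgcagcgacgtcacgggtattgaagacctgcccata
Hopx: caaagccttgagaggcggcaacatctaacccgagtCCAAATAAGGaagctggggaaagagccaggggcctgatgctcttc
They lie at chr10:67537762-67537841 (plus strand) for Egr2 and chr5:77115162-77115241 (minus strand) for Hopx, and come from RefSeq on GRCm38.p6. The CArG box, which reads alike on both strands, was found within 250 bases before a start site in 2 of the 10 immediate early genes with a window, Egr2 and Zfp36, and in 161 of 11077 genes tested (1.45%).

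The genes with the lowest p among those higher in late tumors came from several functions. F2rl1, the protease-activated receptor 2 (ENSMUSG00000021678.9, chromosome 13, 95511732 to 95525227, minus strand), stood at 3.34, 4.48 and 5.17 CPM in the lowest, median and highest early tumor and 6.51, 6.74 and 7.2 CPM in late ones. Its phases did not overlap and the late tumors were close together, with a log2 fold change of 0.65 ± 0.13 (SE, edgeR adjusted p = 0.554, DESeq2 adjusted p = 6.33e-05). Untreated tumors spanned 4.72 to 8.32 CPM, wider than either phase. Mmp10, a matrix metalloproteinase, stood at 1.05, 3.27 and 4.78 CPM early and 5.49, 7.55 and 12.2 CPM late, against 7 to 8.24 CPM untreated. It had the largest log2 fold change of the 10 genes named for the lowest p, 1.31 ± 0.32 (SE), and 1.13 without day 3 replicate 1. Spry2, a feedback inhibitor of receptor tyrosine kinase signaling, stood at 14.3, 16.2 and 17 CPM early and 18.1, 19.8 and 24.8 CPM late. Hopx, an atypical homeodomain protein, stood at 12.7, 18.4 and 22.1 CPM early and 22.5, 24.4 and 32.2 CPM late. Neither overlapped between phases, and their log2 fold changes were 0.34 and 0.49.

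Prkag1, a regulatory subunit of AMP-activated protein kinase, stood at 48.9 to 58.3 CPM early and 60.8 to 68.4 CPM late, with a log2 fold change of 0.22 ± 0.06 (SE, DESeq2 adjusted p = 0.00308). Polr2d, a subunit of RNA polymerase II, stood at 16.2 to 22.4 CPM early and 23.3 to 28.5 CPM late, and neither gene overlapped between phases. The mitochondrially encoded ATP synthase subunit gene mt-Atp8, which overlaps its neighbor mt-Atp6, stood at 14.2 to 16.8 CPM early and 19 to 27.2 CPM late. Respiratory chain genes of the nucleus were higher late in 18 of 19 cases, with a median log2 fold change of 0.12 and 4 at an unadjusted p under 0.05 (21.1%, against 2.02% of all genes). Among them, Atp5a1 did not overlap, at 608 to 744 CPM early and 754 to 827 CPM late, a log2 fold change of 0.17. With a tumor left out, the count of 4 was 7 (day 3 replicate 1), 2 (day 3 replicate 3 and, likewise, day 7 replicate 3), 1 (day 1 replicate 3) or 0 (day 5 replicate 3 and, likewise, day 7 replicate 1). Crabp1, a retinoic acid binding protein, had a log2 fold change of 0.52 and overlapped in range.

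Lists tied to tumor cell growth and metabolism were higher late by small amounts. All 30 proliferation genes had a log2 fold change above 0, with a median of 0.22, but none had an unadjusted p under 0.05. The level was 5.98 in day 3 replicate 1 and 7.06 to 7.39 in the other 11 treated tumors, and without that tumor 23 of 30 genes were higher with a median of 0.09. Mki67 had medians of 427 CPM early and 489 CPM late (log2 fold change 0.25 ± 0.22, SE), and leaving out day 3 replicate 1 or day 7 replicate 1 gave 0.13 or 0.14. Cholesterol biosynthesis genes were higher in 23 of 25 cases, with a median of 0.39, which was 0.23 without day 7 replicate 1. Their level was 4.22 to 4.42 in 4 early tumors but 5.10 and 5.41 in day 1 replicates 1 and 2, against 4.62 to 5.79 late and 4.86 to 5.25 untreated, so the early pool held both the lowest values and a pair within the late range. None had an unadjusted p under 0.05, but 16 did without day 1 replicate 2. Idi1, an isomerase of the pathway, had a log2 fold change of 0.86 ± 0.41 (SE, edgeR adjusted p = 0.596). Hypoxia and glycolysis genes had a median of 0.26, with 27 of 30 higher. At an unadjusted p under 0.05, 1 was higher (3.33%, against 2.02% of all genes), the oxygen sensor gene Egln3 at 0.77. Leaving out day 3 replicate 1 or day 7 replicate 1 gave medians of 0.15 or 0.17, and the genes higher at that threshold numbered 0 to 5 when single tumors were left out, with 5 without day 1 replicate 3 or day 5 replicate 1. Fatty acid synthesis and unfolded protein response genes had medians of 0.15 and 0.07, which were 0.07 and -0.01 without day 3 replicate 1. Inflammatory NF-kB target genes had a median of -0.20, which was -0.03 without that tumor and -0.50 without day 5 replicate 1, although Lif and Ptgs2, a cytokine and a prostaglandin synthase, had log2 fold changes of 0.64 and 0.72.

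Skeletal muscle, adipocyte, extracellular matrix and endothelial lists had medians below 0 that lay nearer to 0 without day 3 replicate 1. Skeletal muscle genes had a median log2 fold change of -3.10, with 18 of 18 lower and 13 at an unadjusted p under 0.05 (72.2%, against 5.07% of all genes). Without that tumor the median was -0.40, with 13 of 18 lower and 0 at that threshold. With other tumors left out, the count of 13 was 6 (day 5 replicate 3), 4 (day 5 replicate 1 and, likewise, day 7 replicate 3) or 1 (day 7 replicate 1). Acta1, skeletal muscle actin, stood at 2.87, 30.8 and 894 CPM in the lowest, median and highest early tumor and 0.0732, 13.7 and 37.5 CPM in late ones, with a log2 fold change of -3.33 that was -0.70 without that tumor. Adipocyte genes had a median of -1.59 that became -0.27, and extracellular matrix genes one of -0.51 that became -0.04. Col1a1 had a log2 fold change of -0.92 ± 0.60 (SE, edgeR adjusted p = 0.596), and -0.01 without day 3 replicate 1. Endothelial genes were lower in 15 of 15 cases with a median of -0.54, which became -0.11. In contrast, the interferon response, sensing and immediate early lists had medians of -1.05, -0.51 and 0.35 without that tumor, against -1.01, -0.54 and 0.34 with it. Mesenchymal, keratinocyte and epithelial lists had medians of -0.21, -0.11 and 0.13, which were -0.02, -0.20 and 0.04 without it. Of 11 erythroid genes, 6 were tested and all 6 were higher, with a median of 1.30, which ran from 0.76 without day 7 replicate 3 to 2.31 without day 1 replicate 3. Hbb-bs, a beta globin, stood at 4.67, 5.68 and 49.6 CPM early and 6.97, 22 and 96.6 CPM late.

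**Figure D4:**
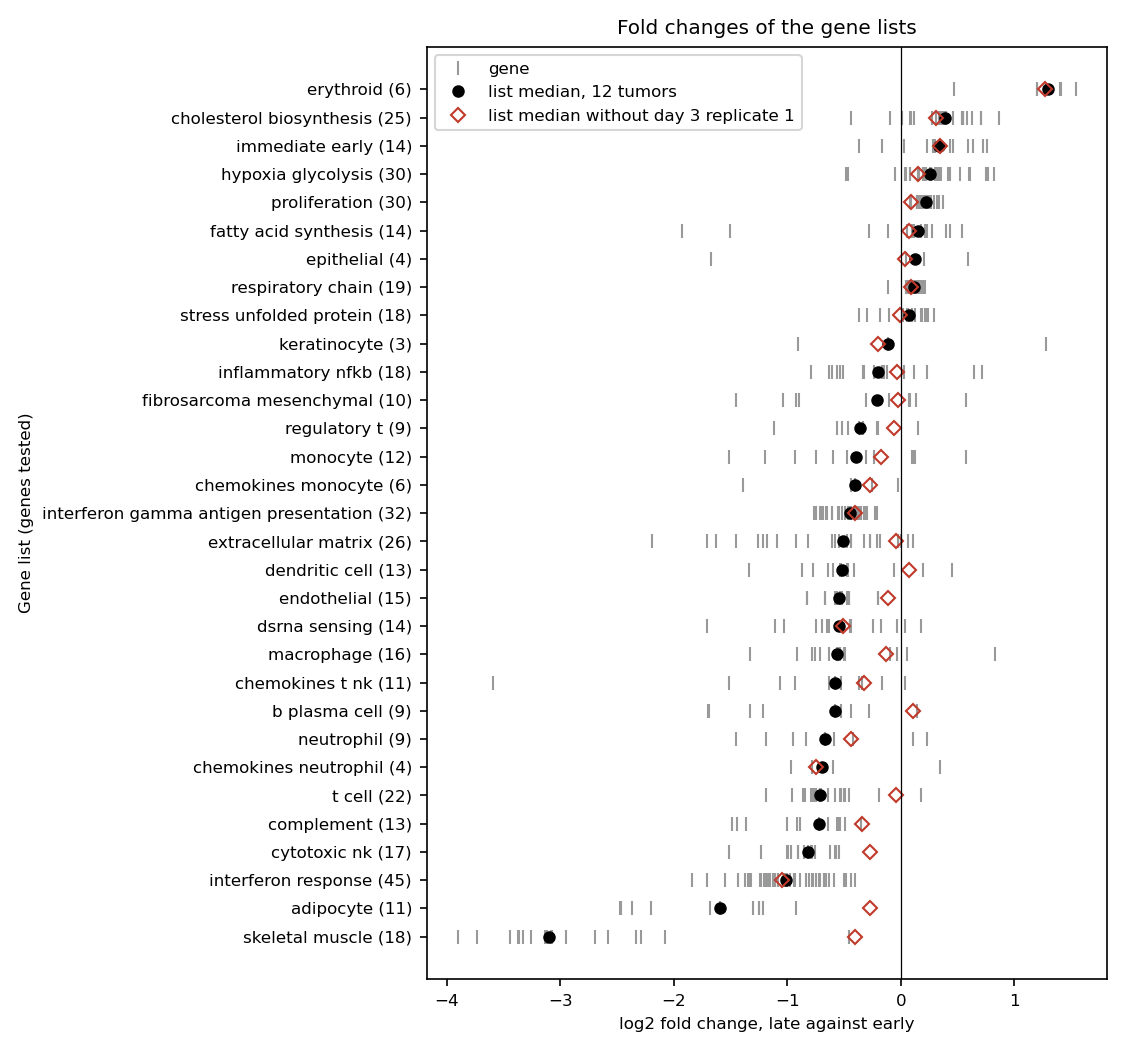
Log2 fold change of late against early tumors (horizontal axis) for each gene (grey ticks) of the 31 lists with at least 3 genes tested (vertical axis), with the list median over 12 tumors (black) and without day 3 replicate 1 (red diamonds). The medians of the skeletal muscle list moved from -3.10 to -0.40 and of the T cell list from -0.71 to -0.04, while that of the interferon response stayed at -1.01 and -1.05.

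Counts of genes depended on single tumors. EdgeR called 0 genes without any 1 of the 12 tumors, with smallest adjusted p-values of 0.173 to 0.817. At an unadjusted p under 0.05, the genes higher in late tumors, 313 with all tumors, numbered 556 (day 1 replicate 1 left out), 484 (day 5 replicate 1), 206 (day 1 replicate 3), 186 (day 7 replicate 3), 160 (day 7 replicate 1) and 142 (day 5 replicate 3). The genes lower in late tumors, 786 with all, numbered 1398 (day 5 replicate 1 left out), 1222 (day 1 replicate 1), 493 (day 5 replicate 3), 490 (day 7 replicate 3) and 467 (day 7 replicate 1). The 56 calls of DESeq2 became 127 (day 5 replicate 1 left out), 125 (day 1 replicate 1), 96 (day 3 replicate 1) and 87 (day 1 replicate 2). They became 28 (day 3 replicate 2), 19 (day 7 replicate 3), 18 (day 5 replicate 3 and, likewise, day 7 replicate 2) and 15 (day 7 replicate 1). Interferon response genes made up 6 of those 15 and 30 of those 127. The DESeq2 calls within this list thus depended on single tumors too, from 6 without day 7 replicate 1 to 33 without day 1 replicate 1. At the looser threshold of an unadjusted p under 0.05, 42 to 45 of the list were lower in the 23 alternative runs where this was counted. The sensing list's count there lay between 8 and 10.

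**Figure D5:**
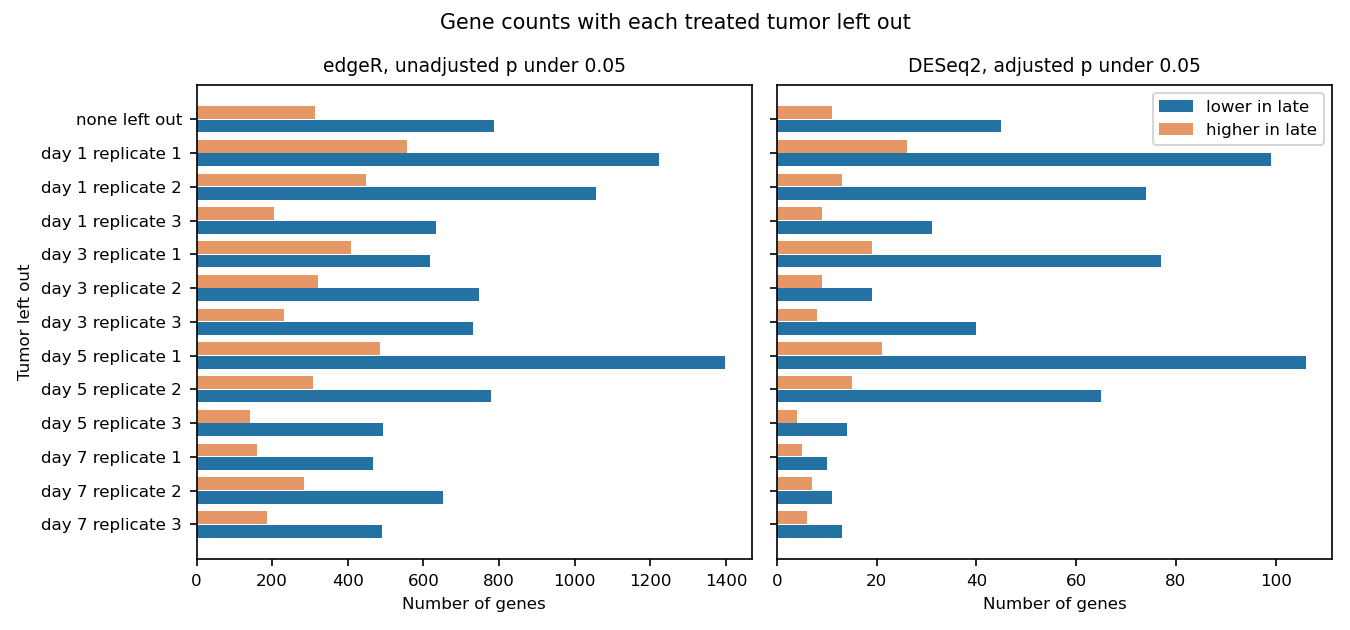
Number of genes (horizontal axes) lower and higher in late tumors at an unadjusted edgeR p under 0.05 (left) and called by DESeq2 (right), with all 12 treated tumors and with each left out in turn (vertical axis). Both counts were highest without day 5 replicate 1 for genes lower in late tumors, at 1398 and 106, and lowest without day 7 replicate 1, at 467 and 10.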

How the data were processed

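The authors sequenced poly(A) RNA of whole tumors as single-end reads, estimated transcript abundance with kallisto on mm10 (GRCm38) and summed transcripts to genes with tximport. The deposited table gives each gene's estimated counts, rounded to whole numbers, with 1 column for each tumor. The transcript set and strand setting were not given in the sources used here, and kallisto divides reads among near-identical genes. Of 32544 entries, 1 had a date for a name and was left out (at most 0.0268% of a tumor's counts). 31401 names matched GENCODE M21 (GRCm38) symbols, whose coordinates are used. Genes above 0.366 CPM in at least 3 of 15 tumors were tested, 15494 in all, and 37 of these had counts identical to another gene.

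Harvest days came from the labels. Early and late tumors were compared with edgeR 4.0.16 (R 4.3.3, TMM factors, two-sided quasi-likelihood F test, Benjamini-Hochberg adjustment over all genes, threshold 0.05), beside DESeq2 1.42.0 and the exact two-sided permutation test of mean log2 CPM (prior count 2). Log2 fold changes are late minus early. Alternatives were other filters, normalizations, tests (limma 3.58.1 voom among them), day terms, a replicate block and leaving out each tumor. Named genes were the 10 lowest p-values each way, the 2 lowest in each of 32 lists, the 5 widest gaps each way and genes fixed by name. Other list members named to complete a count, and a few genes outside the lists, were picked after their values were seen. Members and lists were chosen with earlier results of these data known. Replicate numbers did not pair tumors: of 12 early and late pairs with the same number, 3 had deviations correlated above 0.1. Replicate pairs within a day differed beyond counting noise, with chi-square per degree of freedom of 9.32 or more. The scripts were tested on simulated counts. Limits from counts cover counting error only. Results of a few genes are not reported here.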

Additional observations from a re-analysis of the deposited data

Results flagged for a closer look

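Among the levels of 32 lists in early and in late tumors, 3 of 64 groups of 6 held a tumor separated from the other 5 by more than Dixon's 95% critical value of 0.625, where chance gives about 1 in 20. In early tumors, the interferon gamma and antigen presentation level of day 1 replicate 1 was 7.37, with the next at 8.18. The dendritic cell level of day 3 replicate 1 was 4.22, with the next at 2.61. The proliferation level of day 3 replicate 1 was 5.98, with the next at 7.06.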

How the results depend on the processing

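EdgeR and limma voom called 0 genes in each direction under every alternative run, with smallest adjusted p-values of 0.0908 (voom with tumor weights) to 0.817, while DESeq2 called 11 higher and 45 lower. In DESeq2 fits without 1 tumor, added after seeing the data, the calls higher and lower were 26 and 99, 13 and 74 and 9 and 31 (day 1 replicates 1, 2 and 3), 19 and 77, 9 and 19 and 8 and 40 (day 3), 21 and 106, 15 and 65 and 4 and 14 (day 5) and 5 and 10, 7 and 11 and 6 and 13 (day 7). At an unadjusted p under 0.05, leaving out tumors gave 142 to 556 genes higher and 467 to 1398 lower, and the count higher was 569 with DESeq2, 721 with voom and 601 with harvest day as a term over 15 tumors. Genes without overlap numbered 37 to 117 higher (highest without day 5 replicate 1) and 47 to 104 lower (highest without day 1 replicate 1), where 5 tumors stand against 6. With the replicate number as a block, 0 genes were called higher and 0 lower, with 234 higher and 574 lower at an unadjusted p under 0.05, and the pairing check gave no ground for it, since 1 of 6 early tumors correlated best with its own number. Among named genes, the log2 fold change of Ccl2 turned to 0.07 with the block, and to 0.13, 0.09, 0.00 and 0.02 without day 1 replicate 3, day 3 replicate 2, day 3 replicate 3 and day 7 replicate 1, within a leave-one-out range of -0.20 to 0.13. Voom turned Krt19 to 0.22, Thrsp to 0.32, Vegfa to 0.00 and Adipoq to 0.36. Leaving out day 3 replicate 1 turned Thrsp to 0.28, Cd3e to 0.01, Cd8a to 0.04 and Foxp3 to 0.35, the highest of their leave-one-out values, whose lowest were -1.74, -1.46, -0.90 and -1.16. In these cases the cause was not tested. Of the remaining values of named genes under these alternatives, 2142 kept their direction and side of the threshold, and 22 kept their direction and passed it, all with DESeq2. The skeletal muscle median was -0.38 with voom and -0.40 without day 3 replicate 1, and its 13 genes at an unadjusted p under 0.05 became 2 with DESeq2 and 0 with voom. Voom raised the antigen presentation count from 10 to 19, and harvest day as a term over 15 tumors raised the cholesterol count from 0 to 14. The day terms and the 6 tumors a phase leave days nested in phases, and at 23.7 to 31.9 mega-counts a tumor the interferon ligands other than Ifng lay too low to be compared.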
